A study of Homo sapiens with 18 samples.

Results

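The BCL2 family members described here are 10 genes: 6 that code for BH3-only proteins (BCL2L11, BMF, BBC3, PMAIP1, BIK and BAD), 3 that code for anti-apoptotic proteins (BCL2, BCL2L1 and MCL1) and the effector gene BAK1. They were taken by symbol, as every probe set of the array that the annotation ties to a single member, which gave 47 of the 49395 probe sets. BCL2L11 had 14 probe sets, BCL2 and MCL1 had 6 each, BAK1 had 5, BMF had 4, BIK and BCL2L1 had 3 each, and BBC3, PMAIP1 and BAD had 2 each. RNA came from WiDr and HT29, human colorectal cancer lines that are known to carry an activating BRAF mutation, WiDr being a derivative of HT29, and 18 Affymetrix arrays in 6 groups of 3 were hybridised. In each line, cells given AZ628, an inhibitor of the RAF kinases, were set against cells given vehicle. In WiDr alone, cells transduced with an shRNA against IKKα, the kinase coded by CHUK, were set against cells transduced with a control shRNA. The labels give no dose or treatment time, do not say whether the transduced cells were clones or pools, and do not state that replicate arrays were made from independent cultures. The p-values therefore measure only the spread between arrays, which may be technical. The free text of the knockdown arrays also holds the word control; their titles and condition labels place them in the knockdown group.

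Proteins of the BCL2 family decide whether the outer membrane of the mitochondrion is opened and cytochrome c is released. Anti-apoptotic members such as BCL2, BCL-XL (from BCL2L1) and MCL1 hold the pore-forming effectors BAX and BAK in check, and BH3-only proteins bind the anti-apoptotic members or activate the effectors. In cells driven by BRAF, ERK signalling is known to keep the BH3-only protein BIM (from BCL2L11) low by phosphorylation, and ERK and its output also act on BMF and BAD. The arrays measured transcripts only, and nothing here bears on protein level or phosphorylation.

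All values are log2 signal as deposited, and a difference of 1 on this scale is a factor of 2 in signal. Signals of different probe sets were compared only to choose the one with the highest mean per gene and to describe that choice for BMF. Apart from that, levels were set against the whole table to place markers and dim probe sets and to limit a search for like patterns. Each difference comes from 1 limma fit over the 18 arrays and 49293 probe sets, with p-values adjusted over all of them by the Benjamini-Hochberg method, and a probe set is said to have risen or fallen where the adjusted p was under 0.05. Array medians ran from 5.98 to 6.08, arrays of a group correlated at 0.9963 to 0.9981, and no array stood apart or was a copy of another. CHUK measured 9.68, 9.45 and 9.78 on the control shRNA arrays and 7.68, 7.23 and 7.65 on the IKKα shRNA arrays, a fall of 2.12 (adjusted p = 4.19e-10). ERK output genes fell with AZ628 in both lines, DUSP6 by 4.14 in WiDr and by 4.66 in HT29. CHUK also fell with AZ628, from a mean of 9.49 to 9.06 in WiDr and from 9.53 to 9.16 in HT29. PHLDA1, listed as ERK output, rose with the IKKα shRNA, from a mean of 10.96 with the control shRNA to 11.79. All 7 colorectal epithelial markers lay above the table's median of 6.04 and all 6 fibroblast markers below it, and the mean of the fibroblast list was 4.14 to 4.75 over the 6 groups. Of that list 1 gene rose and 1 fell with AZ628 in WiDr, 1 rose in HT29, and 2 rose with the IKKα shRNA, with medians of -0.01, -0.05 and 0.17. LUM rose by 1.25, 1.77 and 2.84, COL1A2 fell by 0.23 in WiDr and COL3A1 rose by 0.50 with the IKKα shRNA; their part in the results was not tested. Above the median lay also 2 of 5 blood markers (LYZ and HBB) and 1 of 4 endothelial markers (VWF), while PTPRC, the pan-leukocyte marker, was at 3.18. In these bulk samples fewer cells with a transcript and less of it per cell cannot be told apart.

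**Figure D1:**
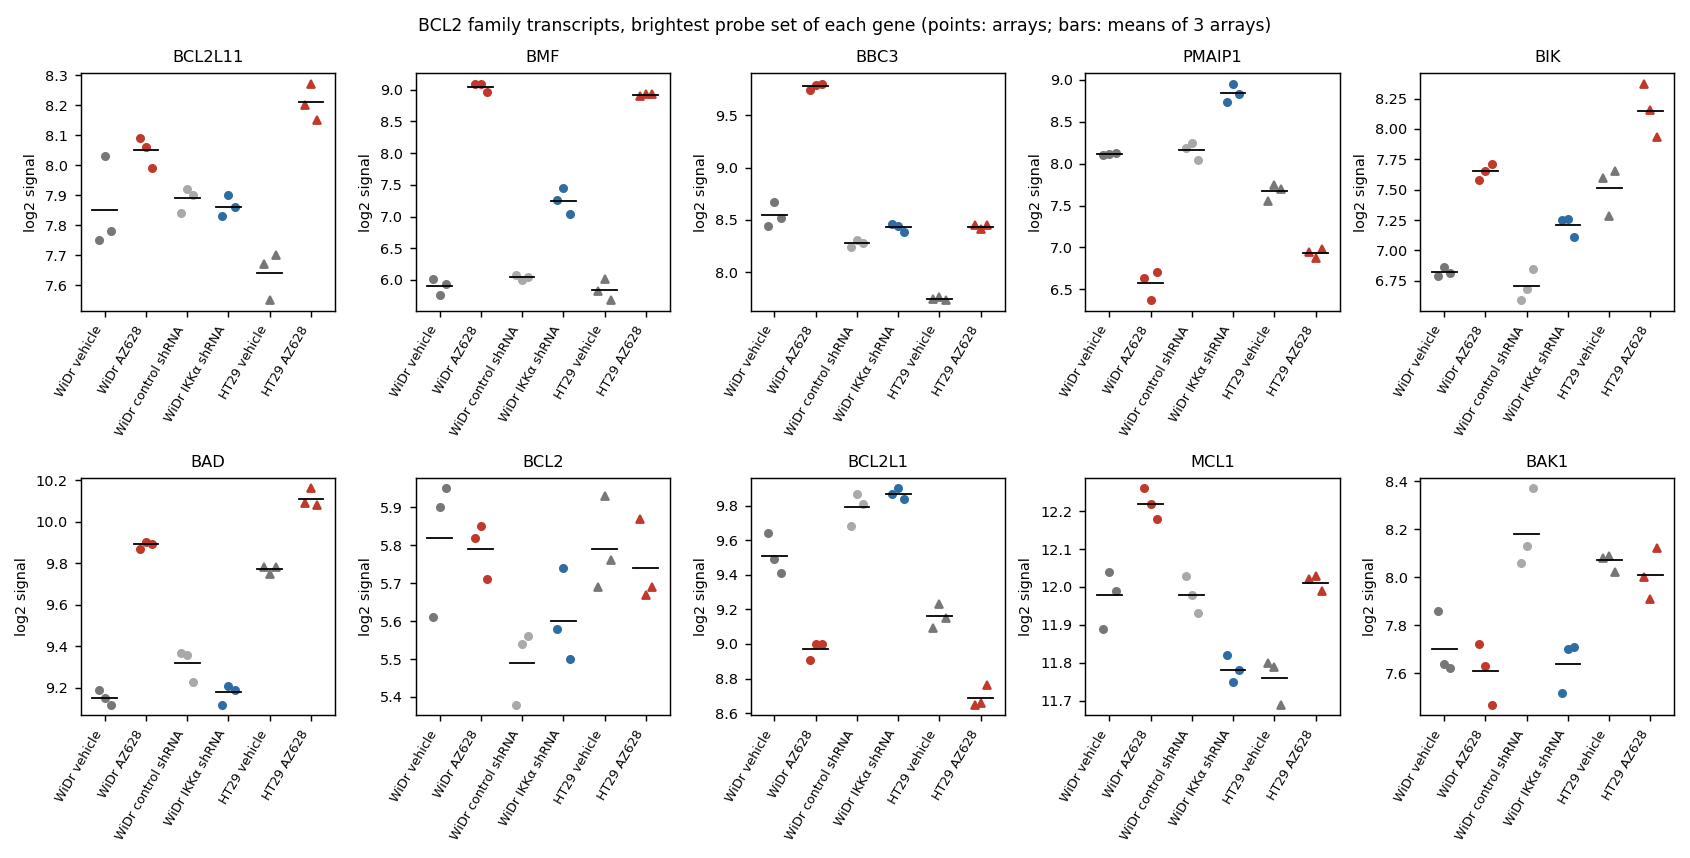
Log2 signal (vertical axis, a separate scale in each panel) of the brightest probe set of each member in the 6 groups; points are single arrays and bars are means of 3 arrays. BMF stands at 9.05 and 8.92 with AZ628 and near 6 in the vehicle and control shRNA groups, and PMAIP1 is lowest with AZ628 and highest with the IKKα shRNA.

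Under AZ628 the same genes passed in the same direction in WiDr and HT29 by the brightest probe set of each. Transcripts of BMF, BBC3, BIK and BAD were higher with the inhibitor, those of PMAIP1 and BCL2L1 were lower, and those of BCL2 did not pass the test on any probe set. By the brightest probe set of each gene, chosen as the one with the highest mean over the 18 arrays, 6 genes were higher and 2 lower in each line, the other 2 being BCL2 and BAK1. Over all 18132 genes taken this way, 43.3% passed in WiDr (22.8% higher, 20.5% lower) and 42.1% in HT29 (21.8% higher, 20.4% lower). For BMF the choice of the brightest probe set rested on the AZ628 arrays themselves. With vehicle that probe set, 11737440_a_at, had means of 5.90 in WiDr and 5.84 in HT29. These lay below those of 11737438_a_at (6.43 and 6.37) and 11750060_a_at (6.41 and 6.25), neither of which passed with AZ628 in either line. Of the 47 probe sets, 13 were higher and 8 lower in WiDr, where 39.3% of all probe sets passed (20.2% higher, 19% lower). In HT29, 14 were higher and 6 lower against a background of 38.3% (19.6% higher, 18.7% lower). The members' share that passed, 44.7% in WiDr and 42.6% in HT29, was near the background, and their median difference was 0.02 in WiDr and 0.03 in HT29 beside 0.00 for all probe sets in either line. Among the BH3-only probe sets 10 of 27 were higher and 4 lower in WiDr and 12 were higher and 3 lower in HT29. Of the 15 anti-apoptotic probe sets, 3 were higher and 3 lower in WiDr and 2 were higher and 2 lower in HT29.

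Fewer members passed with the IKKα shRNA. BMF, PMAIP1 and BIK were higher than with the control shRNA by their brightest probe sets, and MCL1 and BAK1 were lower, where 33% of all genes passed (14.9% higher, 18.1% lower). Over the 47 probe sets, 10 were higher and 5 lower against 29.7% of all probe sets (14.2% higher, 15.5% lower), and the median difference was 0.10 beside 0.03 for all probe sets. The lower count was 3 without IKKα shRNA array 2. All 8 BH3-only probe sets that passed were higher. The 5 anti-apoptotic probe sets that passed were split, 2 higher and 3 lower, and both BAK1 probe sets that passed were lower.

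**Figure D2:**
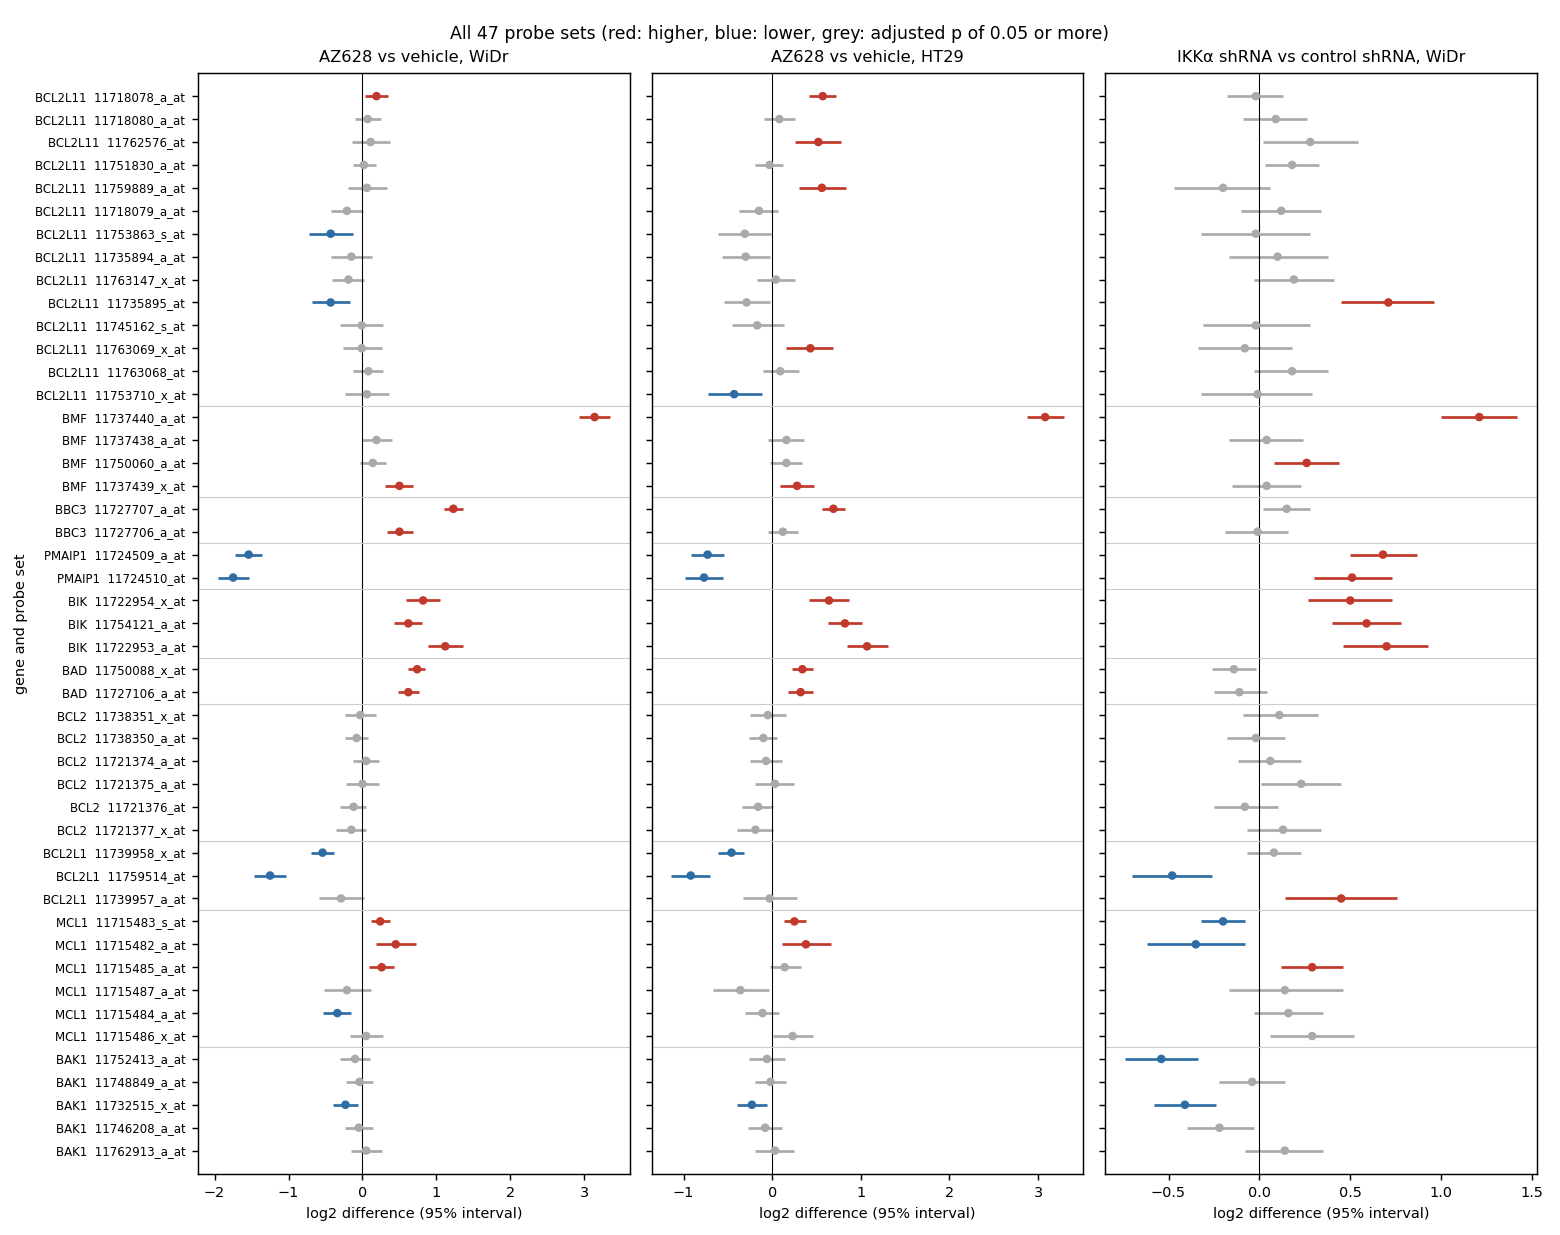
Log2 difference with its 95% interval (horizontal axis) for each of the 47 probe sets (vertical axis, grouped by gene) in the AZ628 comparisons of both lines and the IKKα shRNA comparison; red is higher, blue is lower and grey did not pass. BMF 11737440_a_at lies to the right of all other probe sets, both PMAIP1 probe sets change side between the AZ628 and the shRNA panels, and the 14 BCL2L11 probe sets scatter on both sides of 0.

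BMF, a BH3-only protein that is held at the cytoskeleton in healthy cells, had the largest change of the family. On probe set 11737440_a_at its signal was 6.01, 5.76 and 5.94 on the WiDr vehicle arrays and 9.09, 9.09 and 8.96 on the WiDr AZ628 arrays. In HT29 it was 5.82, 6.02 and 5.68 with vehicle and 8.90, 8.93 and 8.94 with AZ628. Every inhibitor array lay far above every vehicle array of either line. The rise was 3.14 ± 0.10 (SE), or 8.83-fold, in WiDr (adjusted p = 4.07e-14) and 3.08 ± 0.10, or 8.46-fold, in HT29 (adjusted p = 8.47e-14). The responses of the lines differed by -0.06 with a 95% interval of -0.35 to 0.23 (adjusted p = 0.9).

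The knockdown raised BMF as well, to an intermediate level. Signals were 6.07, 6.0 and 6.05 with the control shRNA and 7.26, 7.45 and 7.04 with the IKKα shRNA, and no array overlapped. The rise was 1.21 ± 0.10 (2.31-fold, adjusted p = 2.77e-08), and it was 1.34 against the vehicle arrays of WiDr. It was smaller than the AZ628 rise in the same line (knockdown minus AZ628 -1.93, a factor of 3.82, adjusted p = 3.08e-09). Ordered by mean, the groups ran WiDr AZ628 (9.05 ± 0.07, SD, n = 3), HT29 AZ628 (8.92 ± 0.02), IKKα shRNA (7.25 ± 0.20), control shRNA (6.04 ± 0.03), WiDr vehicle (5.90 ± 0.13) and HT29 vehicle (5.84 ± 0.17), and the arrays of the lowest 3 groups overlapped.

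The other BMF probe sets did not show a change of that size. With AZ628 in WiDr, 11737438_a_at differed by 0.19 and 11750060_a_at by 0.14, neither of which passed, and 11737439_x_at, which lies among the dimmest 30% of the table, rose by 0.50. In HT29 the same 3 probe sets gave 0.16, 0.16 and a rise of 0.28. With the IKKα shRNA 11750060_a_at rose by 0.26 against a control shRNA group that lay 0.34 below vehicle (control minus vehicle -0.34, adjusted p = 0.0123), and it differed from vehicle by -0.08 (adjusted p = 0.541). The rises in HT29 and with the IKKα shRNA were lost when single arrays were left out. The HT29 one was lost without vehicle array 2 (0.26, adjusted p = 0.0553) or AZ628 array 3 (0.20). The shRNA one was lost without control shRNA array 3 (0.18), IKKα shRNA array 1 (0.25) or IKKα shRNA array 2 (0.25). The call of control shRNA against vehicle was itself lost without WiDr vehicle array 2 (-0.28) or control shRNA array 3 (-0.26). Which transcripts each probe set reads was not tested, and the file does not say where in the gene the probes lie.

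**Figure D3:**
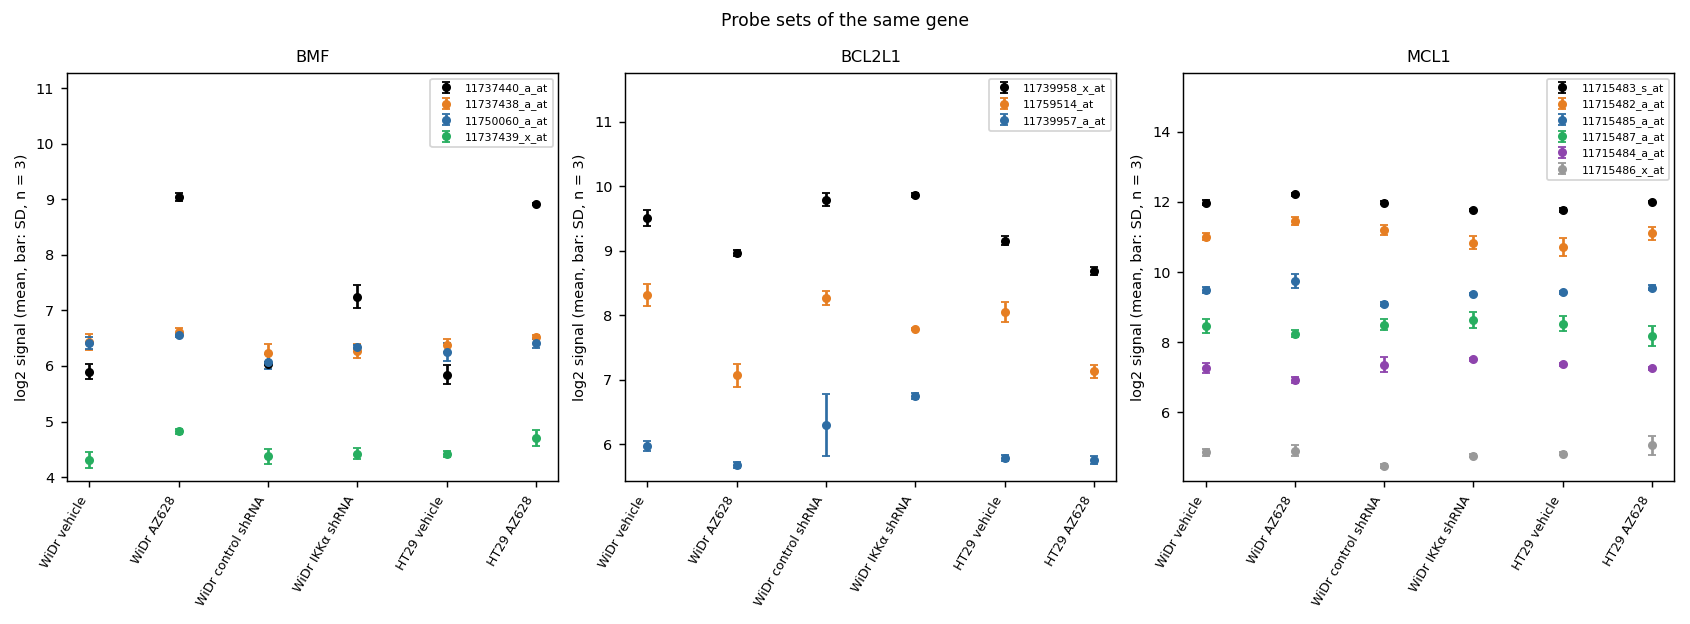
Mean log2 signal (vertical axis, bar: SD, n = 3) of every probe set of BMF, BCL2L1 and MCL1 in the 6 groups. For BMF the black probe set alone climbs from near 6 to 9.05 and 8.92 with AZ628, and for BCL2L1 the black and orange probe sets fall with AZ628 while the blue one did not pass.

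The region before the BMF start is printed because it heads the gene with the largest rise. It is the 250 bases upstream of the first of 2 RefSeq starts, on the minus strand of GRCh38.p14, chr15:40108880-40109129, read 5′ to 3′, and capitals mark motif matches:
BMF: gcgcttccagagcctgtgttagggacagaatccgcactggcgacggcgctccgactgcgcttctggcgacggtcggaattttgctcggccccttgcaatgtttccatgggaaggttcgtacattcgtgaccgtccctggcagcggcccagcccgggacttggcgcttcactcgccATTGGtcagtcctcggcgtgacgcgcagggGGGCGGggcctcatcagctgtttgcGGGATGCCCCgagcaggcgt
Capitals show a CCAAT box starting 75 bases upstream, a GC box at 45 and an NF-κB consensus match at 20. The window of the second BMF start held no match to any of the motifs searched. The 7 motifs searched on both strands, with the share of the 35116 RefSeq windows of this length that hold them, were the FOXO motif GTAAACA (2.98%), the E-box CACGTG (6.34%), the AP-1 motif TGANTCA (6.57%), the ETS motif CCGGAAG (8.52%), CCAAT (32%), the GC box GGGCGG (42.6%) and the NF-κB consensus (9.96%). A GC box may overlap another match. RefSeq windows were found for 8 of the 10 members, not for BIK and MCL1. A match is a description of the letters and not a bound site, and the arrays did not measure binding.

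BBC3 codes for PUMA, a BH3-only protein that binds all main anti-apoptotic members. Its probe set 11727707_a_at read 8.44, 8.67 and 8.52 on the WiDr vehicle arrays and 9.74, 9.79 and 9.80 with AZ628. In HT29 it read 7.74, 7.76 and 7.73 with vehicle and 8.45, 8.41 and 8.45 with AZ628. Untreated HT29 lay below every WiDr array, and with the inhibitor its arrays overlapped those of untreated WiDr and stayed below those of treated WiDr. The rise was 1.23 ± 0.06 (2.35-fold, adjusted p = 1.49e-11) in WiDr and 0.69 ± 0.06 (1.62-fold, adjusted p = 3.95e-08) in HT29. It was smaller in HT29 by 0.54 by the test of that difference (HT29 minus WiDr -0.54, 95% interval -0.72 to -0.36, adjusted p = 0.000702). The other probe set, 11727706_a_at, rose by 0.50 in WiDr and differed by 0.12 in HT29, which did not pass. Its line difference of -0.38 did not pass in the main fit (adjusted p = 0.0656). It passed when the 30% dimmest probe sets were left out (adjusted p = 0.0426).

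The knockdown did not raise BBC3 past the threshold. Signals were 8.24, 8.31 and 8.28 with the control shRNA and 8.46, 8.44 and 8.38 with the IKKα shRNA. The arrays did not overlap, but the difference was 0.15 (95% interval 0.02 to 0.28, adjusted p = 0.0772); it passed when the 30% dimmest probe sets were left out (adjusted p = 0.0439) or the arrays were quantile normalised again (0.19, adjusted p = 0.043). The control shRNA arrays lay 0.27 below the WiDr vehicle arrays (adjusted p = 0.00674), and the IKKα shRNA arrays differed from vehicle by -0.12 (adjusted p = 0.158). On 11727706_a_at the IKKα shRNA differed from the control shRNA by -0.01 and from vehicle by -0.26 (adjusted p = 0.0198). That call was lost in 3 of 18 leave-outs. Averaged over both probe sets, the IKKα shRNA differed from vehicle by -0.19 (adjusted p = 0.0161). The AZ628 effect exceeded the knockdown effect by 2.11-fold (knockdown minus AZ628 -1.08, adjusted p = 1.24e-08). BBC3 held the only E-box match among the members' windows, shown here in 30 bases of the minus strand at chr19:47232882-47232911 (GRCh38.p14, RefSeq start), with the E-box in capitals, 232 bases upstream:
BBC3: atggggagatttCACGTGagatatagatta
The rest of that window held an AP-1 match at 113 and a CCAAT box at 87.

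BIK, a BH3-only protein that sits at the endoplasmic reticulum, rose in all 3 comparisons on all 3 of its probe sets. On 11722954_x_at the WiDr signals were 6.79, 6.86 and 6.81 with vehicle and 7.58, 7.65 and 7.71 with AZ628. HT29 gave 7.60, 7.28 and 7.65 with vehicle and 8.37, 8.16 and 7.93 with AZ628. Untreated HT29 was at the level of treated WiDr, and its arrays overlapped with those. The rise was 0.82 ± 0.11 in WiDr (1.77-fold, adjusted p = 5.21e-06) and 0.64 ± 0.11 in HT29 (1.56-fold, adjusted p = 9.3e-05), and the line difference of -0.18 had an interval of -0.50 to 0.14. On the other 2 probe sets the AZ628 rise was 0.62 and 1.12 in WiDr and 0.82 and 1.07 in HT29.

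With the shRNAs, 11722954_x_at read 6.59, 6.68 and 6.85 for the control and 7.25, 7.26 and 7.11 for IKKα. The IKKα shRNA arrays were all above the control arrays, by 0.50 ± 0.11 (1.42-fold, adjusted p = 0.00151), and the other probe sets rose by 0.59 and 0.70. Against AZ628 in WiDr the knockdown effect differed by -0.32 with an interval of -0.65 to 0.00 (adjusted p = 0.12, and 0.0348 when only the groups compared were fitted). BIK was thus, with BMF, the member whose transcript rose under both the inhibitor and the knockdown on its brightest probe set.

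BAD, a BH3-only protein that growth factor kinases switch off by phosphorylation, rose with AZ628 on both probe sets in both lines. Signals of 11750088_x_at were 9.19, 9.15 and 9.12 with vehicle and 9.87, 9.90 and 9.89 with AZ628 in WiDr. They were 9.78, 9.75 and 9.78 with vehicle and 10.09, 10.16 and 10.08 with AZ628 in HT29. The arrays of a group lay close together, and neither AZ628 group overlapped its vehicle group. The rise was 0.74 ± 0.06 in WiDr (adjusted p = 5.4e-09) and 0.34 ± 0.06 in HT29 (adjusted p = 8.61e-05), smaller in HT29 by the test of the difference (-0.40, adjusted p = 0.00517). On 11727106_a_at the rises were 0.62 and 0.32, and their difference of -0.30 did not pass. With the IKKα shRNA BAD differed by -0.14 (9.37, 9.36 and 9.23 for the control, 9.12, 9.21 and 9.19 for IKKα, adjusted p = 0.0696, and 0.0361 without the 30% dimmest probe sets) and by 0.02 against vehicle.

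BCL2L11, which codes for BIM, had the most probe sets and the least uniform picture. On 11718078_a_at, its brightest, WiDr read 7.75, 8.03 and 7.78 with vehicle and 8.09, 8.06 and 7.99 with AZ628. HT29 read 7.67, 7.55 and 7.70 with vehicle and 8.20, 8.27 and 8.15 with AZ628. The arrays overlapped in WiDr and were apart in HT29. The rise was 0.57 ± 0.07 in HT29 (1.48-fold, adjusted p = 3.89e-06) and 0.19 ± 0.07 in WiDr (1.14-fold, adjusted p = 0.0435). The WiDr call was lost in 10 of 18 leave-outs, among them without vehicle array 1 (0.14, adjusted p = 0.185) or AZ628 array 1 (0.17, adjusted p = 0.127), and when only the groups compared were fitted (adjusted p = 0.131). The difference between the lines (0.38, adjusted p = 0.0377) was also lost in 8 leave-outs, for example without WiDr vehicle array 2 (0.29, adjusted p = 0.0928).

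The other BCL2L11 probe sets did not move together. In HT29, 11762576_at rose by 0.52, 11759889_a_at by 0.56 and the dim 11763069_x_at by 0.43, the dim 11753710_x_at fell by 0.43, and the other 9 did not pass. In WiDr, 11753863_s_at and the dim 11735895_at each fell by 0.43. With the IKKα shRNA, 11718078_a_at differed by -0.02, with an interval of -0.18 to 0.13, and 11735895_at alone rose, by 0.71 (4.07, 4.44 and 4.31 for the control, 4.71, 5.22 and 5.02 for IKKα, adjusted p = 0.000171). Of the 14 probe sets, 7 lay below the dim threshold of 4.62, where a change is hard to separate from background signal. Calls that rested on single arrays were 11763069_x_at (0.28 without HT29 vehicle array 1, 0.31 without HT29 AZ628 array 2), 11753710_x_at (-0.27 without HT29 vehicle array 1, -0.28 and -0.42 without HT29 AZ628 array 1 or 2) and 11753863_s_at in WiDr (-0.35 and -0.39 without vehicle array 1 or 3, -0.41 and -0.32 without AZ628 array 2 or 3). Over all 14 BCL2L11 probe sets the differences ran from -0.43 to 0.19 with AZ628 in WiDr, from -0.43 to 0.57 in HT29 and from -0.20 to 0.71 with the IKKα shRNA. Averaging the 14 gave -0.06 in WiDr (adjusted p = 0.353) and 0.04 in HT29 (adjusted p = 0.506).

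BCL2L11 is a textbook target of FOXO factors, and its window held the only FOXO match among the members. The 250 bases before its RefSeq start on the plus strand, chr2:111120664-111120913 (GRCh38.p14), carry the motif 223 bases upstream, followed by 3 GC boxes and a CCAAT box, all in capitals:
BCL2L11: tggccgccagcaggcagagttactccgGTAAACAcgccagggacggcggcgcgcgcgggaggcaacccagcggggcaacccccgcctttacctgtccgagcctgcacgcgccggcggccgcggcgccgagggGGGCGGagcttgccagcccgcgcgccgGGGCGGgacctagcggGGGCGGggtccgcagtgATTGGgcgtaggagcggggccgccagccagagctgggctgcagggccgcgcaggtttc
FOXO3 itself rose with AZ628, by 1.41 in WiDr and 1.52 in HT29, and FOXO1, added here after its values were seen, fell, by 0.16 and 0.70. With the IKKα shRNA FOXO3 differed by 0.07, which did not pass, and FOXO1 rose by 1.06. Any link between the FOXO transcripts, the motif match and BCL2L11 was not tested.

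PMAIP1, which codes for NOXA, a BH3-only protein that binds MCL1, moved in opposite directions under the inhibitor and the knockdown. On 11724509_a_at WiDr read 8.10, 8.12 and 8.13 with vehicle and 6.64, 6.37 and 6.71 with AZ628. HT29 read 7.55, 7.74 and 7.70 with vehicle and 6.95, 6.87 and 6.98 with AZ628. All treated arrays lay below all vehicle arrays of both lines. The fall was 1.54 ± 0.09 in WiDr (2.92-fold lower, adjusted p = 8.72e-11) and 0.73 ± 0.09 in HT29 (1.66-fold lower, adjusted p = 1.89e-06). HT29 fell less, by 0.81 (95% interval 0.55 to 1.07, adjusted p = 0.000446), having started 0.45 lower (adjusted p = 0.00064).

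With the control shRNA PMAIP1 read 8.19, 8.25 and 8.04, and with the IKKα shRNA 8.73, 8.95 and 8.83. The knockdown arrays were the highest of the series, and the rise of 0.68 ± 0.09 (1.6-fold, adjusted p = 7.69e-06) was 0.72 against vehicle. The knockdown and the AZ628 effect differed by 2.23 (4.68-fold, 95% interval 1.96 to 2.49, adjusted p = 1.19e-10). The second probe set, 11724510_at, fell by 1.75 in WiDr and by 0.77 in HT29, rose by 0.51 with the IKKα shRNA, and gave a line difference of 0.97. PMAIP1 is printed as the member with opposite responses, from the plus strand at chr18:59899746-59899995 (GRCh38.p14), the 250 bases before the RefSeq start, with its 4 GC boxes in capitals:
PMAIP1: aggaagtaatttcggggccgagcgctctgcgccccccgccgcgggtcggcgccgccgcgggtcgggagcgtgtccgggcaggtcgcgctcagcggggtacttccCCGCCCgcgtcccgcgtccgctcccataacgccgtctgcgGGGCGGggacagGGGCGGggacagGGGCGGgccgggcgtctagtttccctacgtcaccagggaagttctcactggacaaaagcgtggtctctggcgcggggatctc
No match to the FOXO, E-box, AP-1, ETS, CCAAT or NF-κB letters was found in this window.

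**Figure D4:**
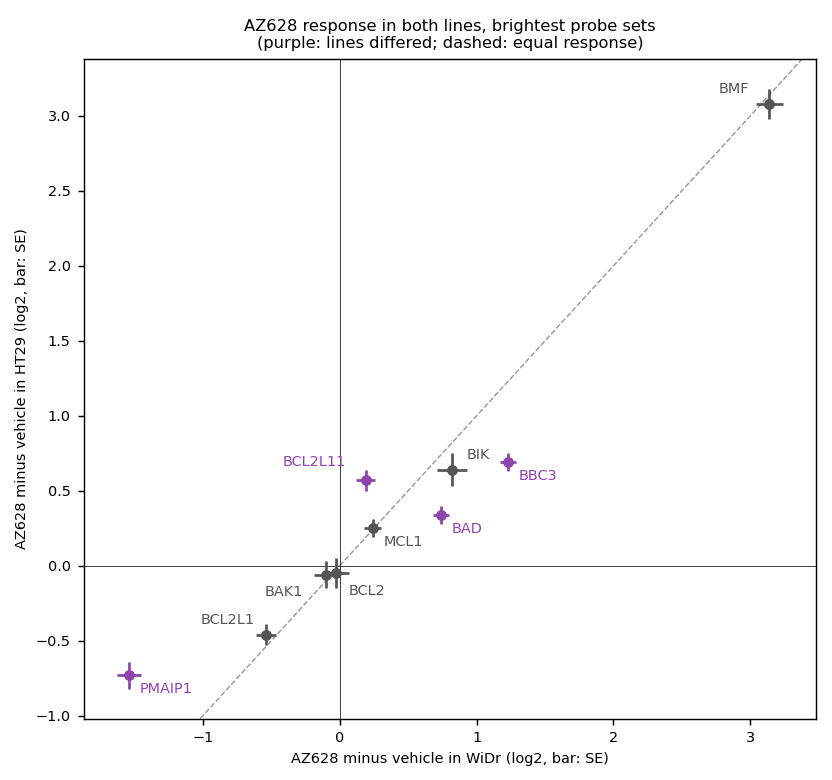
AZ628 minus vehicle on the log2 scale in WiDr (horizontal axis) and HT29 (vertical axis) for the brightest probe set of each member, with standard errors as bars; purple marks members whose response differed between lines. BMF lies at 3.14 and 3.08 on the dashed line of equal response, BBC3 and BAD lie below it, PMAIP1 (-1.54 and -0.73) and BCL2L11 lie above it.

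The lines were compared directly for all members. The AZ628 effect differed between HT29 and WiDr on 5 of the 47 probe sets (10.6%), 3 higher and 2 lower. Of all probe sets 5.51% differed (2.43% higher, 3.08% lower). They were the brightest probe sets of BCL2L11, BBC3 and BAD and both of PMAIP1, so that no anti-apoptotic or BAK1 probe set was among them. For BBC3, BAD and PMAIP1 the size of the change was smaller in HT29. For BCL2L11 it was larger, on a call that did not hold in the leave-outs given above.

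Among the anti-apoptotic genes, BCL2L1, which codes for BCL-XL, fell with AZ628. Its probe set 11739958_x_at read 9.64, 9.49 and 9.41 with vehicle and 8.91, 9.0 and 9.0 with AZ628 in WiDr. In HT29 it read 9.09, 9.23 and 9.15 with vehicle and 8.65, 8.66 and 8.76 with AZ628. The groups were apart in each line, and the fall was 0.54 ± 0.07 in WiDr (1.46-fold lower, adjusted p = 4.42e-06) and 0.46 ± 0.07 in HT29 (1.38-fold lower, adjusted p = 3.16e-05). Probe set 11759514_at fell further, by 1.25 and 0.92. The third, 11739957_a_at, differed by -0.29 and -0.03 and did not pass in either line.

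With the IKKα shRNA the BCL2L1 probe sets disagreed. The brightest differed by 0.08 (interval -0.07 to 0.23), 11759514_at fell by 0.48 (8.15, 8.35 and 8.30 for the control, 7.76, 7.80 and 7.79 for IKKα, adjusted p = 0.00151), and 11739957_a_at rose by 0.45. That rise rested on control shRNA array 1, which read 5.75 beside 6.57 and 6.59. Without it the difference was 0.17 (adjusted p = 0.0734), and it was also lost without IKKα shRNA array 1 (0.43) or 3 (0.44). Both transduced groups lay above WiDr vehicle on the brightest probe set, by 0.27 for the control and 0.36 for IKKα.

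MCL1, a short-lived anti-apoptotic protein, changed little. On 11715483_s_at WiDr read 11.89, 12.04 and 11.99 with vehicle and 12.26, 12.22 and 12.18 with AZ628, and HT29 read 11.80, 11.79 and 11.69 with vehicle and 12.02, 12.03 and 11.99 with AZ628. The groups were apart, with rises of 0.24 ± 0.06 (1.18-fold, adjusted p = 0.00251) and 0.25 ± 0.06 (1.19-fold, adjusted p = 0.00198). With the shRNAs it read 12.03, 11.98 and 11.93 for the control and 11.82, 11.75 and 11.78 for IKKα, a fall of 0.20 (adjusted p = 0.0149) that was lost without control shRNA array 1 (adjusted p = 0.065) or IKKα shRNA array 2 (adjusted p = 0.058). The other probe sets went both ways: with AZ628 in WiDr 11715482_a_at rose by 0.45, 11715485_a_at rose by 0.26 and 11715484_a_at fell by 0.34, and with the IKKα shRNA 11715485_a_at rose by 0.29 while 11715482_a_at fell by 0.35. On 11715485_a_at the control shRNA group was the low one, at 9.09 beside 9.49 with vehicle (-0.40, adjusted p = 0.00301), and the IKKα shRNA group differed from vehicle by -0.11 (adjusted p = 0.354). The rise of 11715485_a_at in WiDr was lost without vehicle array 1 (0.21) or AZ628 array 3 (0.15), and the fall of 11715482_a_at with the IKKα shRNA (adjusted p = 0.0489) was lost in 12 of 18 leave-outs. In HT29, 11715482_a_at rose by 0.38, a call lost without vehicle array 1 (0.25) or 3 (0.39) or AZ628 array 1 (0.39) or 3 (0.29). For the 6 MCL1 probe sets together, differences spanned from -0.34 to 0.45 with AZ628 in WiDr, from -0.36 to 0.38 in HT29 and from -0.35 to 0.29 with the IKKα shRNA. The mean over the 6 probe sets differed by 0.08 in WiDr, 0.09 in HT29 and 0.06 with the IKKα shRNA, none of which passed.

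BCL2, the founding anti-apoptotic member, did not pass on any of its 6 probe sets in the AZ628 or IKKα shRNA comparisons. The brightest, 11738351_x_at, had a mean of 5.82 ± 0.18 (SD, n = 3) in WiDr vehicle, 5.79 ± 0.07 in WiDr AZ628, 5.49 ± 0.10 with the control shRNA, 5.60 ± 0.12 with the IKKα shRNA, 5.79 ± 0.12 in HT29 vehicle and 5.74 ± 0.11 in HT29 AZ628. The difference was -0.03 in WiDr (interval -0.23 to 0.18), -0.05 in HT29 (interval -0.25 to 0.15) and 0.11 with the IKKα shRNA (interval -0.09 to 0.32). The 6 BCL2 probe sets ranged from -0.15 to 0.05 with AZ628 in WiDr, from -0.19 to 0.03 in HT29 and from -0.08 to 0.23 with the IKKα shRNA. Of the 6, 3 lay below the dim threshold, where a change would be hard to see.

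BAK1 codes for BAK, which with BAX forms the pores in the mitochondrial membrane. AZ628 left its brightest probe set, 11752413_a_at, within -0.30 to 0.10 of vehicle in WiDr and within -0.26 to 0.14 in HT29 (95% intervals). Only 11732515_x_at passed, with a fall of 0.23 in each line, which was lost without WiDr vehicle array 1 (-0.17) or WiDr AZ628 array 3 (-0.17) in WiDr and in 4 leave-outs in HT29 (HT29 vehicle array 1 or 2, -0.20 each, and HT29 AZ628 array 1 or 2, -0.22 each). The shRNA arrays read 8.06, 8.13 and 8.37 for the control and 7.52, 7.70 and 7.71 for IKKα, with no overlap, and the fall was 0.54 ± 0.09 (1.46-fold lower, adjusted p = 0.000206). The WiDr vehicle arrays read 7.86, 7.64 and 7.62. On this probe set the control shRNA group was the high one, 0.48 above vehicle (adjusted p = 0.00253), and the IKKα shRNA group differed from vehicle by -0.06 (interval -0.26 to 0.14). The second probe set that fell with the IKKα shRNA, 11732515_x_at, by 0.41, read 6.94 there and 6.98 with vehicle. The other probe sets differed in this: 11746208_a_at was above vehicle with the control shRNA (0.47) and with the IKKα shRNA (0.25, adjusted p = 0.0395, lost in 6 of 18 leave-outs), and 11762913_a_at was below vehicle with the control shRNA (-0.30, adjusted p = 0.0483, lost in 13 of 18). The full range over the 5 BAK1 probe sets was from -0.23 to 0.05 with AZ628 in WiDr, from -0.23 to 0.03 in HT29 and from -0.54 to 0.14 with the IKKα shRNA.

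The control shRNA itself was set against vehicle in WiDr for all members, since the IKKα shRNA is read against it. Of 47 probe sets 4 were higher and 8 lower, with 16.9% of all probe sets passing (9.92% higher, 6.93% lower). By the brightest probe sets BAK1 (0.48) and BCL2L1 (0.27) were higher and BBC3 (-0.27) and BCL2 (-0.33) lower, while BMF (0.13), PMAIP1 (0.04) and BIK (-0.12) did not pass. Of these 12 calls, 5 held when any single array was left out; the lower count was 2 without vehicle array 2, 3 without control shRNA array 3, 4 without vehicle array 3 or control shRNA array 1, and 5 without control shRNA array 2. The BCL2 call was lost without vehicle array 2 (-0.29) or 3 (-0.26) or control shRNA array 1 (-0.27) or 2 (-0.35), and that of BCL2L1 without vehicle array 2 (0.26) or 3 (0.22) or control shRNA array 2 (0.23). Read against vehicle in place of the control shRNA, 10 probe sets were higher and 3 lower with the IKKα shRNA (background 31.2%, with 16.1% higher and 15.1% lower). In this comparison the knockdown cannot be told apart from other differences between transduced and vehicle cells. BMF (1.34), PMAIP1 (0.72), BIK (0.39) and BCL2L1 (0.36) were the brightest probe sets that were higher. The 3 that were lower were BCL2L1 11759514_at (-0.53, adjusted p = 0.000631), BBC3 11727706_a_at (-0.26) and the brightest of MCL1 (-0.19). For BCL2L1, 11739957_a_at was higher by 0.78, and the mean of its 3 probe sets did not pass (0.20, adjusted p = 0.0547). The BBC3 call was lost without WiDr vehicle array 2 (-0.22), IKKα shRNA array 1 (-0.21) or IKKα shRNA array 3 (-0.23), and the MCL1 call without WiDr vehicle array 2 (-0.16), WiDr vehicle array 3 (-0.18) or IKKα shRNA array 2 (-0.18). The lower count was 5 without WiDr vehicle array 1 and 1 without WiDr vehicle array 2. These comparisons share the vehicle or the IKKα shRNA arrays with others given here.

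Knockdown and inhibitor were also compared effect against effect in WiDr, which uses no array in both effects. They differed on 18 of the 47 probe sets, 8 higher and 10 lower for the knockdown, against 36.8% of all probe sets (18% higher, 18.7% lower). By the brightest probe sets the knockdown effect was higher for PMAIP1 (2.23) and BCL2L1 (0.63) and lower for BMF (-1.93), BBC3 (-1.08), BAD (-0.88), BAK1 (-0.45) and MCL1 (-0.44). For the brightest probe sets of BCL2L11 (-0.21), BIK (-0.32) and BCL2 (0.14) the difference did not pass. Other probe sets of these genes did. For BCL2L11, 11735895_at was higher for the knockdown by 1.14 (adjusted p = 3.03e-05) and 11763147_x_at by 0.39, opposite in sign to the brightest. Both of these BCL2L11 probe sets lay below the dim threshold. BIK 11722953_a_at was lower (-0.43). The calls of 11763147_x_at and of BIK were lost in 13 and 10 of 18 leave-outs. MCL1 also went both ways, with 11715482_a_at lower (-0.80) and 11715484_a_at higher (0.50, adjusted p = 0.0045). The mean of its probe sets differed by -0.02 (adjusted p = 0.877). For BAK1 only the brightest probe set passed, on which the control shRNA group lay 0.48 above vehicle. Its other probe sets differed by 0.00, -0.18, -0.17 and 0.09, and the mean of all of them did not pass (-0.14, adjusted p = 0.151).

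Untreated, the lines already differed in the family. HT29 was higher than WiDr on 9 probe sets and lower on 7, with 26.5% of all probe sets passing (14.1% higher, 12.4% lower). All 3 BIK probe sets were higher in HT29, by 0.69, 0.76 and 0.96, both BAD probe sets by 0.62 and 0.54, and 3 of 5 BAK1 probe sets by 0.36, 0.40 and 0.45. Both BBC3 probe sets were lower, by -0.80 and -0.43, and both PMAIP1 probe sets, by -0.45 and -0.51, as were the brightest probe sets of BCL2L1 (-0.36), MCL1 (-0.22) and BCL2L11 (-0.22). Another BCL2L11 probe set, 11718080_a_at, passed in the opposite direction (0.26, adjusted p = 0.0287), a call lost without WiDr vehicle array 1 (0.17) or 2 (0.24) or HT29 vehicle array 1 (0.24) or 3 (0.23). The call for MCL1 was lost without WiDr vehicle array 2 or HT29 vehicle array 3 (-0.18 each), and that for BCL2L11 without WiDr vehicle array 2 (-0.13), HT29 vehicle array 1 (-0.23) or HT29 vehicle array 2 (-0.17). BMF, which responded most to AZ628, differed by -0.07 between the untreated lines (interval -0.27 to 0.14).

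**Figure D5:**
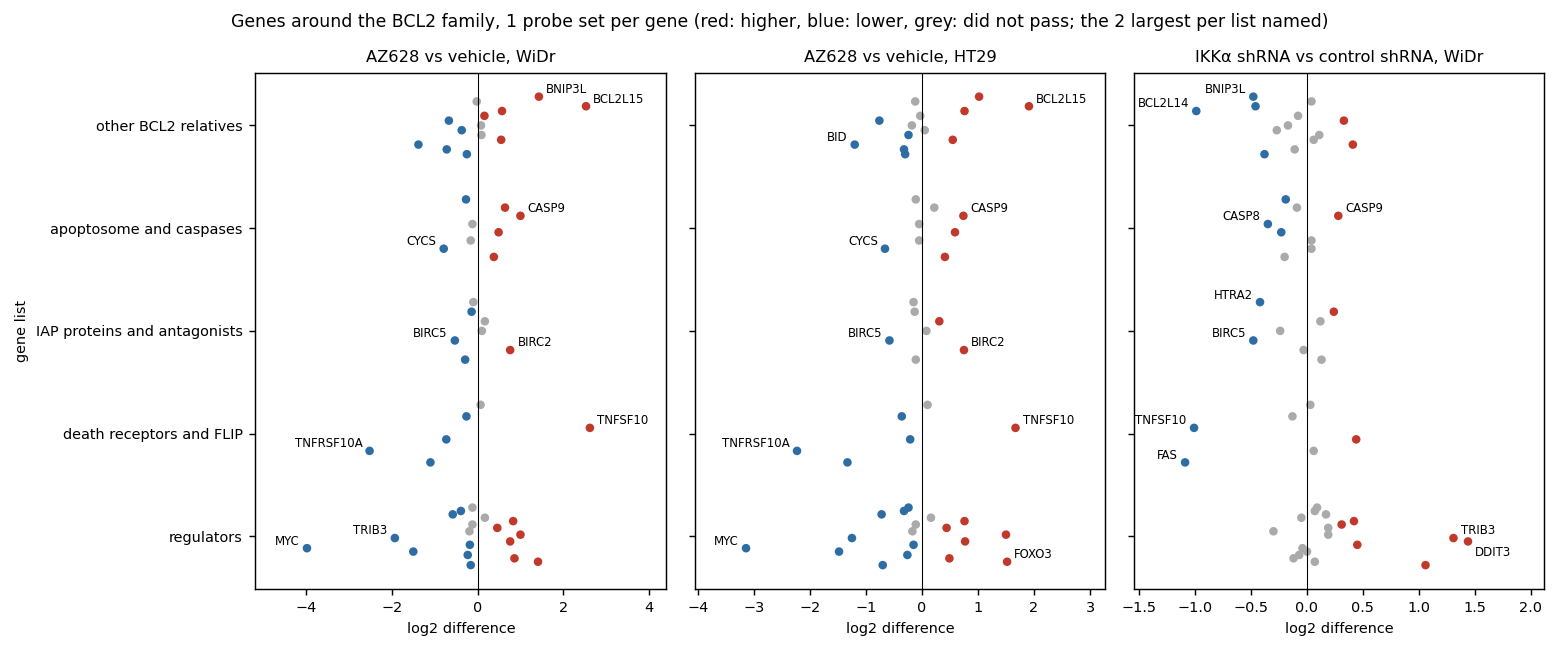
Log2 difference (horizontal axis) of each measured gene of 5 lists around the BCL2 family (vertical axis), 1 probe set per gene, in the AZ628 comparisons and the IKKα shRNA comparison; red is higher, blue is lower, grey did not pass. BCL2L15 and TNFSF10 are far to the right with AZ628 and left of 0 with the IKKα shRNA, and the regulators that passed with the IKKα shRNA, 6 of 18, all lie to the right.

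Other genes of the family and of the death pathway were followed by 1 probe set each, the one with the highest mean, and the counts are to be read beside the 43.3%, 42.1% and 33% of all genes that passed in WiDr, HT29 and with the IKKα shRNA. Of 13 further BCL2 relatives, 5 rose and 5 fell in WiDr and 4 rose and 5 fell in HT29 with AZ628, and 2 rose and 4 fell with the IKKα shRNA. BCL2L15, a BCL2 relative expressed in the gut, rose by 2.53 and 1.91 with AZ628 and fell by 0.46 with the IKKα shRNA, and BNIP3L, a mitophagy receptor, rose by 1.43 and 1.02 and fell by 0.48. BID, the BH3-only protein that links death receptors to the mitochondrion, went the other way, with falls of 1.38 and 1.20 and a rise of 0.41. BAX, the partner of BAK, fell by 0.25, 0.30 and 0.38 in the 3 comparisons.

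Downstream of the mitochondrion, 4 of 8 measured apoptosome and caspase genes rose and 2 fell with AZ628 in WiDr, 3 rose and 1 fell in HT29, and 1 rose and 3 fell with the IKKα shRNA. CASP9, the initiator caspase of the apoptosome, rose by 1.0 and 0.74 with AZ628 and by 0.28 with the IKKα shRNA, and CYCS, cytochrome c, fell by 0.79 and 0.66 with AZ628. Of 7 inhibitor of apoptosis genes and their antagonists, 1 rose and 3 fell in WiDr, 2 rose and 1 fell in HT29, and 1 rose and 2 fell with the IKKα shRNA. BIRC2, which codes for cIAP1, rose by 0.76 and 0.75 with AZ628, and BIRC5, survivin, fell by 0.53, 0.58 and 0.48 in the 3 comparisons.

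In the death receptor list of 6 genes, 1 rose and 4 fell with AZ628 in each line, and 1 rose and 2 fell with the IKKα shRNA. TNFSF10, which codes for the ligand TRAIL, rose by 2.62 and 1.67 with AZ628 and fell by 1.01 with the IKKα shRNA, while its receptor TNFRSF10A fell by 2.52 and 2.23 with AZ628. FAS fell in all 3 comparisons, by 1.10, 1.33 and 1.09. Of 18 measured regulators of BCL2 family genes and proteins, 6 rose and 8 fell in WiDr and 6 rose and 9 fell in HT29. With the IKKα shRNA 6 rose and 0 fell. The share that passed there in either direction was near the 33% of all genes, but all genes were split, 14.9% higher and 18.1% lower. MYC fell by 3.98 and 3.14 with AZ628 and differed by -0.04 with the IKKα shRNA. TRIB3, a stress-induced pseudokinase, fell by 1.93 and 1.25 with AZ628 and rose by 1.31 with the IKKα shRNA, and DDIT3, which codes for the stress factor CHOP, rose in WiDr and HT29 by 0.76 and 0.77 and with the IKKα shRNA by 1.44.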

How the data were processed

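The values analysed were the deposited log2 values of 18 Affymetrix arrays, which the authors made with RMA (background correction, quantile normalisation and probe set summary). RMA, limma and R 3.0.2 are listed in the submitters' processing notes. Per the labels, 100 ng of total RNA was labelled for each array. The table held 49395 probe sets, of which 102 controls were left out. The platform annotation tied 44988 of the others to 1 symbol, 1832 to several and 2473 to none. Precision is limited by the 3 arrays of each group.

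Groups came from the sample labels; the series text writes HT28 for the inhibited HT29 arrays, read here as HT29. Differences were fitted with limma 3.58.1 (lmFit and eBayes, R 4.3.3) over all 18 arrays, 1 mean per group, with Benjamini-Hochberg adjustment over 49293 probe sets in each of 8 comparisons and a threshold of 0.05. Every p in the text is from this fit or the same fit under another setting. RMA and quantile normalisation remove shifts common to all probe sets, and summaries compress the change of dim ones. The script was tested on simulated data. Deviations of same-numbered arrays of different groups correlated at -0.30 to 0.32 (9 of 45 above 0.1), and those of different-numbered arrays at -0.30 to 0.30. No block was therefore used in the main fit.

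All 47 member probe sets were counted and plotted. The brightest of each gene (highest mean over the arrays) represents it, and for BMF that mean was highest through the AZ628 arrays. Context genes were named by size, at most 2 rises and 2 falls per list. Members and lists were chosen with earlier results of these data known. Some listed genes were not analysed here. Alternatives were a filter on the 30% dimmest probe sets, 1 probe set or the mean of the probe sets per gene, further normalisation, an intensity trend, only the groups compared, a replicate block, a 2-fold minimum and leaving out each array. Promoter windows came from RefSeq tables of GRCh38.p14.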

Additional observations from a re-analysis of the deposited data

Results flagged for a closer look

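The AZ628 response differed between HT29 and WiDr, by the test of the difference itself, for 5 probe sets of 4 members. HT29 minus WiDr was 0.38 for BCL2L11 11718078_a_at (rises of 0.57 in HT29 and 0.19 in WiDr), -0.54 for BBC3 11727707_a_at (rises of 0.69 and 1.23) and -0.40 for BAD 11750088_x_at (rises of 0.34 and 0.74). It was 0.81 for PMAIP1 11724509_a_at (differences of -0.73 in HT29 and -1.54 in WiDr) and 0.97 for PMAIP1 11724510_at (-0.77 and -1.75). All 3 arrays of each AZ628 group of HT29 showed the direction against all 3 vehicle arrays, and in WiDr so did all but those of BCL2L11, which overlapped.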

How the results depend on the processing

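Of 120 member values that passed, 0 changed sign under any setting that keeps the probe sets apart. Leaving out each array in turn gave counts of member probe sets (higher, then lower) of 11 to 14 and 6 to 9 for AZ628 in WiDr, 12 to 14 and 4 to 8 in HT29, 9 to 12 and 3 to 5 for the IKKα shRNA against control, 2 to 4 and 2 to 3 for the line difference, 8 to 11 and 5 to 8 for untreated HT29 against WiDr, 3 to 5 and 2 to 9 for control shRNA against vehicle, 9 to 11 and 1 to 5 for IKKα shRNA against vehicle, and 7 to 8 and 9 to 10 for knockdown minus AZ628.

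With a 2-fold minimum the counts (higher, then lower) were 3 and 3 for AZ628 in WiDr, 2 and 0 in HT29, 1 and 0 for the IKKα shRNA against control, 0 and 0 for the line difference, 0 and 0 for untreated HT29 against WiDr, 0 and 0 for control shRNA against vehicle, 1 and 0 for IKKα shRNA against vehicle, and 3 and 2 for knockdown minus AZ628; limma called the larger counts of the report without that minimum. Leaving out the 30% dimmest probe sets gave 4 lower for the line difference, and quantile normalisation again gave 3 lower for control shRNA against vehicle. Fitting only the groups compared gave 3 lower for control shRNA against vehicle and 1 lower for IKKα shRNA against vehicle. Under this setting 22 calls were lost and 6 gained. Among those lost were the brightest probe sets of BBC3 for control shRNA against vehicle (adjusted p = 0.0582) and of BCL2L11 for the line difference (adjusted p = 0.0936). The brightest of MCL1 was lost for the IKKα shRNA against control (adjusted p = 0.0541) and for the untreated lines (adjusted p = 0.0802).

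Averaging the probe sets of a gene turned the sign for BCL2L11 with AZ628 in WiDr (-0.06), MCL1 with the IKKα shRNA (0.06) and BCL2L11 between untreated lines (0.12). The same averaging gave 1 member lower with the IKKα shRNA, 1 higher for the line difference, 3 lower in untreated HT29, 1 higher for control shRNA against vehicle and 3 lower for knockdown minus AZ628. The averages pool probe sets that moved apart.

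The replicate block, on replicate numbers that are not known to pair the arrays, lost 6 calls and gained 2 among 376 values, with 0 sign changes. Under it the AZ628 counts in WiDr were 12 higher and 8 lower, and those of the IKKα shRNA 11 and 4. Dim signal limits 11 of the 47 probe sets, and 3 arrays per group limit all of them.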

Other observations

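By a fixed likeness measure, Pearson's r over the 6 group means among 10612 genes with signal above the table's median, the genes closest to BMF were SAYSD1 (0.9980), VPS39 (0.9958) and CYP1A1 (0.9942). Those closest to PMAIP1 were CYREN (0.9965), SLC4A7 (0.9962) and PDRG1 (0.9951), and those closest to BBC3 were ACTR10 (0.9942), CHMP5 (0.9928) and ZNF16 (0.9925). With 6 points that share arrays, many genes come this close: 198 had r above 0.95 with BMF, 200 with PMAIP1 and 75 with BBC3. BMF ranged over 3.21 log2 units between groups, PMAIP1 over 2.26 and BBC3 over 2.03.

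Some context genes also differed between the responses of the lines. HT29 minus WiDr was higher for 1 and lower for 2 of the 13 further BCL2 relatives. It was higher for 1 and lower for 1 of 6 death receptor genes, and higher for 3 and lower for 2 of 18 regulators. None of the 8 apoptosome and caspase genes or the 7 inhibitor of apoptosis genes passed. Of all probe sets 5.51% passed. With AZ628 TNFRSF10B, a TRAIL receptor, fell more in WiDr (0.73) than in HT29 (0.21), with 0.52 between them (limma adjusted p = 0.00885), and it rose by 0.44 with the IKKα shRNA. TNFSF10 rose less in HT29 (-0.95, adjusted p = 0.00026), as did BCL2L15 (-0.61, adjusted p = 0.00881) and BNIP3L (-0.41, adjusted p = 0.00715). Knockdown and inhibitor effects in WiDr were opposite in sign for BID (difference 1.79), BCL2L14 (-1.55), BCL2L15 (-2.99) and TNFSF10 (-3.64).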
